A study of Mus musculus with 5 samples.

Results

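The genes described here had 0 counts in one of the 2 conditional-knockout (cKO) lens libraries and at least 50 counts in the other. They were taken from the table of estimated read counts, rounded to whole numbers, and number 128 of the 22183 genes listed. Of these, 85 were present in cKO 1 and absent from cKO 2, and 43 were present in cKO 2 and absent from cKO 1. The counts in the cKO pools chose the genes, so those counts are given as a description, and the calls of fits that use them are printed without support being read from them. The Ctrl counts and the functions of the genes were not used by the choice.

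Each library is poly(A) RNA of whole lenses from 14-day-old mice, pooled from 4 to 6 lenses. The cKO libraries (n = 2) came from Yap1f/f;Cre and Yap1f/+;Cre animals chosen for small eyes and a closed pupillary membrane, whatever their genotype. Ctrl libraries (n = 3) came from littermates with floxed Yap1 (Yap1f/f or Yap1f/+) and no abnormality, which the genotype label calls WT, so that a floxed allele is common to both groups. The labels do not name the Cre line or the cells in which it acts. Per the labels, severely affected lenses were much smaller and some were remnants, and the share of each genotype in a pool is not stated. In bulk RNA, fewer cells of a type and less RNA per cell cannot be told apart.

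Yap1 encodes a transcriptional co-activator that is held in check by the Hippo kinases and binds DNA through the TEAD factors. In the lens it is known for keeping the epithelium in its proliferating state. The lens itself holds no vessels, muscle or nerve, but it lies beside the iris, ciliary body, vitreous and retina, and in the young mouse is covered by a vascular network with macrophages.

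The libraries held 22047553 to 25762805 counts, and 12602 and 12028 genes were detected in cKO 1 and cKO 2 against 13972 to 14199 in the Ctrl libraries. Yap1 (ENSMUSG00000053110) had 92 and 61 counts in cKO 1 and cKO 2 and 155, 133 and 143 in Ctrl 1, 2 and 3, so both cKO pools lay below every Ctrl pool. The difference did not pass the threshold (log2 fold change −1.08, SE 0.33, edgeR adjusted p = 0.0759), and the count covers the whole gene. Lens fibre genes took a summed 392000 and 350000 CPM (counts scaled to the effective library size) in cKO 1 and cKO 2 and 316000 to 368000 in Ctrl, with none of the 15 at 0 in any library. The 4 Y-linked genes measured held 65.7 to 78.1 CPM in Ctrl, 0.0817 in cKO 1 and 0 in cKO 2, so sex and genotype cannot be told apart between the groups, whereas the pools of the cKO group were alike in this respect.

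The same rule was applied to every ordered pair of libraries. Of 8158 genes with at least 50 counts in cKO 1, 1.04% were at 0 in cKO 2, and of 8362 such genes in cKO 2, 0.514% were at 0 in cKO 1. Between Ctrl libraries the rule found 0 to 13 genes per ordered pair. The 13 and the 11 were genes held by Ctrl 2 and Ctrl 1 that were at 0 in Ctrl 3, and the other 4 ordered pairs gave 0 or 1. The 128 genes therefore number far more than in any pair of Ctrl libraries. Held against Ctrl libraries, cKO 1 lacked 60 to 101 genes that a Ctrl library held, and cKO 2 lacked 119 to 149.

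Zeros were more frequent in both cKO libraries at the same Ctrl level. Among 477 genes with a mean Ctrl count of 10 to under 20, with every Ctrl count at least at the lower limit of the bin, 22.0% were at 0 in cKO 1 and 23.7% in cKO 2. In the Ctrl libraries, with the level taken from the other Ctrl libraries, the share was 0.475 to 1.4%. At a mean of 20 to under 50 it was 8.11% and 9.92% in the cKO pools against 0 to 0.446% in Ctrl, and at 50 to under 100 it was 2.03% and 2.73% against 0 to 0.412%. Genes with only 1 to 9 counts made up 12.9% and 10.8% of the detected genes in cKO 1 and cKO 2 and 18.9 to 20.3% in Ctrl. The part of this lower detection in the pool-specific absences was not tested. Of 7817 genes with at least 50 counts in every Ctrl library, 25 were at 0 in cKO 1 and not in cKO 2, 63 in cKO 2 and not in cKO 1, and 16 in both.

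**Figure D1:**
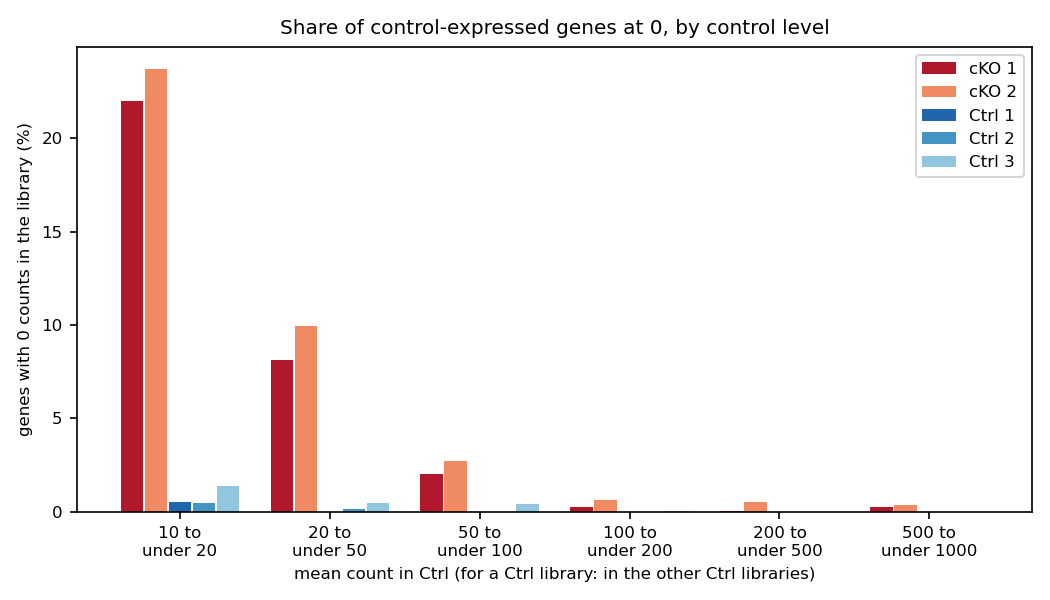
Share of genes with 0 counts in each library (y, percent) by mean Ctrl count (x), with the level of a Ctrl library taken from the other Ctrl libraries. Both cKO libraries lie above every Ctrl library in the lowest bin (22.0% and 23.7% against at most 1.4%), and all shares are small above 100 counts.

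The directions differ in how the genes stood in the control lens. Of the 85 genes present in cKO 1 only, 31 (36.5%) had under 10 counts in every Ctrl library, 37 (43.5%) had 10 or more in every Ctrl library, and 17 were mixed. Of the 43 genes present in cKO 2 only, the numbers were 4 (9.3%), 32 (74.4%) and 7. Over all genes with at least 50 counts in cKO 1, 1.43% had under 10 and 97.3% had 10 or more in every Ctrl library, and in cKO 2 the shares were 0.586% and 98.4%. So the genes held by cKO 1 include a large block that the control lens hardly has, and those held by cKO 2 are mostly genes that all control lenses had at a low level. Genes at 0 in every Ctrl library numbered 6 for cKO 1 (Il4i1, Myh1, Myl1, Ostn, Rgs1 and Tnnt3, of which Il4i1, Rgs1 and Tnnt3 were named after their values were seen) and 0 for cKO 2, against 0.343% and 0.0957% of all genes with at least 50 counts in those pools. The median of the mean Ctrl level was 0.54 CPM for the first direction and 1.27 CPM for the second, and the median in the holding pool was 2.9 and 2.42 CPM.

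**Figure D2:**
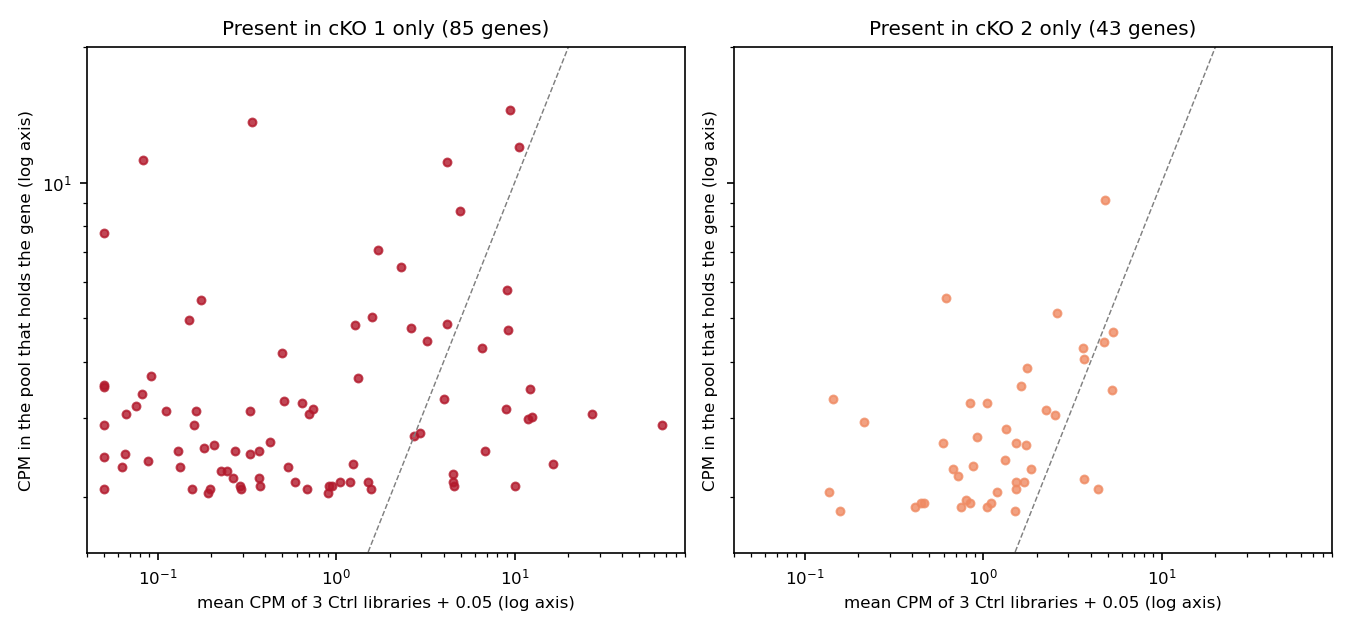
Level of each gene in the cKO pool that holds it (y, CPM, log axis) against its mean level in the 3 Ctrl libraries plus 0.05 (x, CPM, log axis), with equal levels on the dashed line. The 85 genes held by cKO 1 spread from a Ctrl mean of 0 to 66.5 CPM, and the 43 held by cKO 2 from 0.0864 to 5.29 CPM.

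The count in the pool that held the gene was above every Ctrl count for 65 of the 85 genes, within the Ctrl range for 9 and below it for 11. For the 43 genes it was above for 37, within for 3 and below for 3. Among all genes with at least 50 counts, 49% lay above and 27.2% below every Ctrl count in cKO 1, and 55.3% and 20.8% in cKO 2. A fit of each cKO pool alone against Ctrl assumes that the lone pool varies like the controls. In that fit, 50 of the 85 were higher and 9 lower in cKO 1 than in Ctrl, where 17.7% of all 12393 genes tested were higher and 23.9% lower. Of the 43 genes, 19 were higher and 1 lower in cKO 2, where 14.5% of 12210 genes tested were higher and 23.3% lower. In the pool at 0, 44 of the 53 tested genes of the first direction and 38 of the 39 tested genes of the second were lower than Ctrl. The rule used these counts, so nothing is read from the calls.

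With both cKO pools together against Ctrl, 53 of the 85 and 39 of the 43 genes passed the edgeR count filter, and the rest have no edgeR value in that fit. Among them 1 was lower and 0 were higher in the first direction, and 0 in either direction in the second, against 13.5% called over all 11724 genes (edgeR quasi-likelihood, Benjamini-Hochberg adjusted p under 0.05). At an unadjusted p under 0.05, 1 was higher and 5 were lower in the first direction and 0 in the second. DESeq2 gave 4 higher and 1 lower in the first direction (Adam8, Dusp2, Il4i1, Tnnc2 and S1pr3) and 0 in the second, against 9.2% higher and 11.9% lower (21.1% in either direction) over all genes it tested. The rule used the cKO counts of this contrast too. Between cKO 1 and cKO 2 there is 1 pool each and no test.

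Skeletal muscle genes were among those held by cKO 1. Of 31 muscle genes in the list, 5 were present in cKO 1 only and none in cKO 2 only. Myl1 (ENSMUSG00000061816), a light chain of fast muscle myosin, had 87 counts in cKO 1, 0 in cKO 2 and 0 in each Ctrl library, at least 26.6-fold above a floor of 3 counts per Ctrl library. Tnnt3 (ENSMUSG00000061723), a fast-muscle troponin T, had 60 counts in cKO 1 and 0 in each of the other 4 libraries (at least 18.3-fold). Myh1, a fast myosin heavy chain, had 51 in cKO 1 and 0 elsewhere (at least 15.6-fold). These 3 genes of the contractile apparatus were thus seen in 1 library of 5. Tnnc2, fast troponin C, had 75 in cKO 1, 0 in cKO 2 and 0, 1 and 0 in Ctrl 1, 2 and 3. Pvalb, the calcium buffer parvalbumin, had 61, 0, 9, 7 and 2 counts in that order.

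Other muscle genes that the rule did not take pointed to the same library. Acta1, skeletal actin, had 127 counts in cKO 1, 4 in cKO 2 and 0 in every Ctrl library. Tnni2 had 47 and 0 and Atp2a1, the calcium pump of fast muscle, 42 and 0 in cKO 1 and cKO 2, both with 0 in every Ctrl library. Of 15 muscle-list genes outside the rule with at least 10 counts in the cKO pools, 11 were higher in cKO 1 and 10 at least 4-fold so, against 52.7% and 10.5% of 11895 such genes over the whole table. A 4-fold excess was as frequent or nearly so in other lists, so it is not particular to muscle. It held for 5 of 5 erythroid, 4 of 5 pigment-cell, 4 of 5 surface-epithelium, 8 of 13 photoreceptor and 15 of 25 macrophage genes. For lens fibre it was 2 of 15 and for endothelium 5 of 17. Myod1 and Myog, the muscle lineage factors, and Ryr1 and Cacna1s were at 0 in both cKO pools. The summed list without the genes of the rule was 785 and 853 CPM in cKO 1 and cKO 2, below the 871 to 937 CPM of the Ctrl pools (exact two-sided permutation p = 0.1, the smallest that 10 splits allow, adjusted p = 0.152 over 32 lists), and it was led by Pgam2, Eno3 and Casq1, which had 769 counts or more in every Ctrl library. Scaled by total counts, the cKO pools were no longer both below Ctrl (exact permutation p = 0.6). Between cKO and Ctrl, 3 of 11 tested muscle genes were higher (Ttn, Casq1 and Eno3) and 2 lower (Pgam2 and Mybpc1) (median log2 fold change 0.77, against −0.056 over all genes and 5.76% higher and 7.73% lower).

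Ostn (ENSMUSG00000052276), which encodes the secreted peptide osteocrin, known from bone and muscle, belonged to no list. It had 189 counts in cKO 1 and 0 in each of the other 4 libraries (at least 57.8-fold above the Ctrl floor). Cpt1b, the muscle form of carnitine palmitoyltransferase, had 59 and 0 in cKO 1 and cKO 2 and 0, 0 and 3 in Ctrl. It was named after its values were seen, and its counts were partly fractional.

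Stromal genes gave a weaker and mixed picture, with 2 of 18 list genes in cKO 1 only and none in cKO 2 only. Dcn (ENSMUSG00000019929), the collagen-binding proteoglycan decorin, had 275 counts in cKO 1, 0 in cKO 2 and 0, 2 and 0 in Ctrl 1, 2 and 3. Col3a1, a fibrillar collagen chain, had 54, 0, 6, 2 and 7 counts in that order. Dcn was thus close to absent outside cKO 1, while Col3a1 was low in every Ctrl pool. Lum, another small proteoglycan of stroma, had 28 counts in cKO 1 and 0 elsewhere, but Col1a1 was higher in cKO 2 (127 counts) than in cKO 1 (66), with 8, 2 and 1 in Ctrl. Kera, Dpt, Mfap5, Fap and Pi16 were at 0 in both cKO pools. Of 11 list genes outside the rule with at least 10 counts in the cKO pools, 8 were higher in cKO 1 (72.7%, against 52.7% over the whole table) and 3 lower. At least 4-fold higher were 4 (36.4%, against 10.5%), among them Lum and Fn1 (223 and 41 counts in cKO 1 and cKO 2). The list sum without the genes of the rule was 365 and 345 CPM in cKO 1 and cKO 2 and 382 to 418 in Ctrl (exact permutation p = 0.1, adjusted p = 0.152), led by Ogn and Col6a3, and 2 of 9 tested genes were higher between cKO and Ctrl, Col1a1 and Postn (median log2 fold change 0.02). Scaled by total counts, that difference in the sum turned direction (exact permutation p = 0.7).

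**Figure D3:**
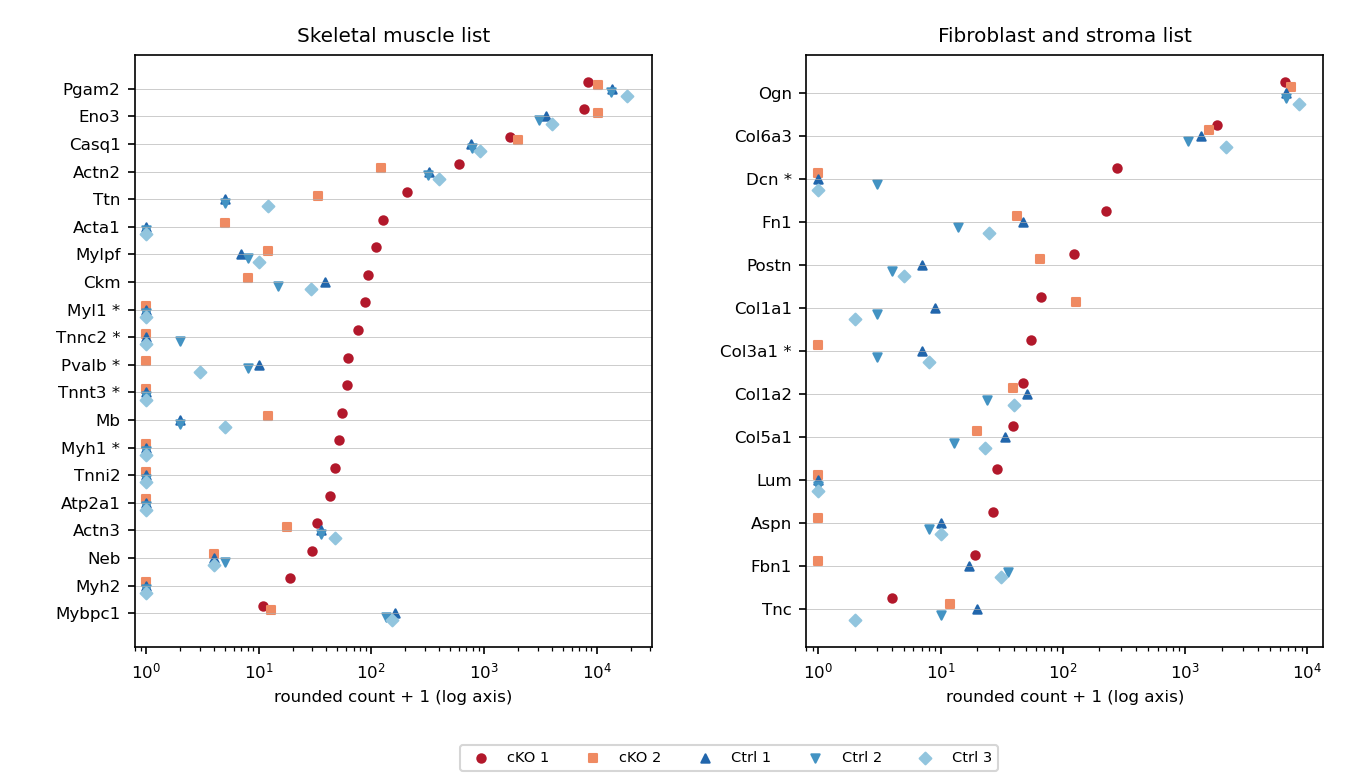
Counts plus 1 in the 5 libraries (x, log axis) for the skeletal muscle and stromal list genes with at least 10 counts in the cKO pools, ordered by cKO 1. An asterisk marks genes of the rule, and Myl1, Tnnt3 and Myh1 show counts in cKO 1 alone (87, 60 and 51).

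Inflammatory genes were also present in cKO 1 and absent from cKO 2, but several of them were not foreign to the control lens. Ccl2 (ENSMUSG00000035385), a chemokine that draws monocytes, had 293 counts in cKO 1, 0 in cKO 2 and 152, 437 and 84 in Ctrl 1, 2 and 3. Cxcl1, a chemokine for neutrophils, had 65, 0, 1, 11 and 14 counts in that order. Tlr2, a receptor for bacterial lipoproteins, had 73, 0, 412, 281 and 68. Ccl2 in cKO 1 lay within the Ctrl range, Cxcl1 above it, and Tlr2 near its lowest value in Ctrl 3. The annotation term inflammatory response covered 7 of the 85 genes (8.24%, against 1.23% of all genes with at least 50 counts in cKO 1), namely Adam8, C5ar1, Ccl2, Cxcl1, Relb, S1pr3 and Tlr2, and 0 of the 43 genes of the other direction (1.0% of all such genes in cKO 2).

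Some immune genes were nearly absent from the controls, and the next ones named were chosen after their values were seen. Rgs1, a regulator of G-protein signalling in leukocytes, had 86 counts in cKO 1 and 0 in the other 4 libraries (at least 26.3-fold above the Ctrl floor). C5ar1, the receptor for complement C5a, had 76 in cKO 1, 0 in cKO 2 and 0, 3 and 1 in Ctrl. Il4i1, an amino acid oxidase of myeloid cells, had 71 in cKO 1 and 0 in each other library (at least 21.7-fold), with fractional counts. Adam8, a protease of leukocytes, had 83, 0, 1, 1 and 0 counts in cKO 1, cKO 2 and Ctrl 1 to 3. Csf2rb, a receptor subunit for granulocyte-macrophage colony-stimulating factor, had 57, 0, 1, 1 and 4, and Dcstamp, a fusion protein of osteoclasts and giant cells, 50, 0, 4, 1 and 5.

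None of the 28 macrophage-list genes met the rule, and 24 of them had counts in cKO 2. The summed macrophage list was 436 CPM in cKO 1, 87.9 in cKO 2 and 10.3 to 15.9 in Ctrl, so that both cKO pools lay above every Ctrl pool (exact permutation p = 0.1, adjusted p = 0.152). Of its 28 genes, 25 had at least 10 counts in the cKO pools outside the rule, and 23 of these were higher in cKO 1, 15 of them at least 4-fold. Trem2, for example, a lipid receptor of macrophages, had 68 counts in cKO 1, 6 in cKO 2 and 0 in each Ctrl library, and Itgam, an integrin of myeloid cells, 21, 1 and 0. Between cKO and Ctrl, 15 of 17 tested macrophage genes were higher in cKO (median log2 fold change 5.70), against 5.76% of all genes tested. Fcgr1 was at 0 in both cKO pools, as was Lyve1. Chemokines and cytokines outside the rule summed to 141 and 22.8 CPM in cKO 1 and cKO 2 and 3.15 to 9.42 in Ctrl (exact permutation p = 0.1, adjusted p = 0.152), and 11 of 13 such genes were higher in cKO 1. In that list 3 of 9 tested genes were higher between cKO and Ctrl (median 4.23). The part of macrophage RNA in the genes held by cKO 1 was not tested.

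Of the 20 cell type lists, 11 had a higher sum in cKO 1 than in cKO 2 without the genes of the rule. Among those higher in cKO 2 were the lens epithelium (1460 CPM in cKO 1 and 2780 in cKO 2), Muller glia and astrocytes (1220 and 2180), general neurons (330 and 400) and surface epithelium (133 and 176). Dkk3 led the sums of lens epithelium and glia (22189 and 50606 counts), Uchl1 that of neurons (7907 and 10672) and Perp that of surface epithelium (3164 and 4726). Gene by gene, with at least 10 counts in the cKO pools, 8 of 10 glial and 4 of 5 surface-epithelium genes were higher in cKO 1. For lens epithelium it was 6 of 12 and for neurons 3 of 6, against 52.7% over the whole table. No gene of these lists, or of those in the next sentences, met the rule. Erythroid genes summed to 65.6 CPM in cKO 1, above every Ctrl pool, and to 2.2 CPM in cKO 2, below every Ctrl pool (exact permutation p = 0.8, adjusted p = 0.883). Pigment-cell genes summed to 476 and 42.9 CPM against 18.8 to 24.7 in Ctrl, nearly all of it from Gpnmb (11512 and 1080 counts), which macrophages express as well, while Slc24a5, Kit and Gpr143 were at 0 in both cKO pools. Without Gpnmb the sum was 5.43 and 2.65 CPM, below the 11.2 to 19.6 CPM of Ctrl, and the median log2 fold change of the 5 tested genes was −3.5. Tyrp1, an enzyme of melanin synthesis, had 9 and 0 counts in cKO 1 and cKO 2 and 57, 64 and 120 in Ctrl. Other genes of the list went the other way. Dct had 35 and 4 counts in cKO 1 and cKO 2 and 3, 0 and 0 in Ctrl, and Mlana 14 and 0, with 0 in each Ctrl library. Of 5 pigment-cell genes with at least 10 counts in the cKO pools, Gpnmb among them, 4 were higher in cKO 1, all at least 4-fold, and 1 was lower. Photoreceptor genes summed to 20.1 and 3.95 CPM against 4.91 to 75.1 in Ctrl, so the Ctrl pools differed among themselves in this list. All 13 of its genes with at least 10 counts in the cKO pools were higher in cKO 1, 8 of them at least 4-fold. Neutrophil genes stayed low, at 11.8 and 5.1 CPM against 2.69 to 3.34 in Ctrl, and lymphoid genes at 4.41 and 4.99 against 6.57 to 8.07. Keratins of the corneal surface (Krt12, Krt5 and Krt14) were at 0 in all 5 libraries. Other genes of the surface-epithelium list were not. Krt4 had 54, 32 and 61 counts in Ctrl 1, 2 and 3, and Aldh3a1 had 190, 116 and 70, both with 0 in cKO 1 and cKO 2. Between cKO and Ctrl, 3 of 6 tested genes of that list were lower and 1 higher, against 7.73% and 5.76% of all genes tested.

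**Figure D4:**
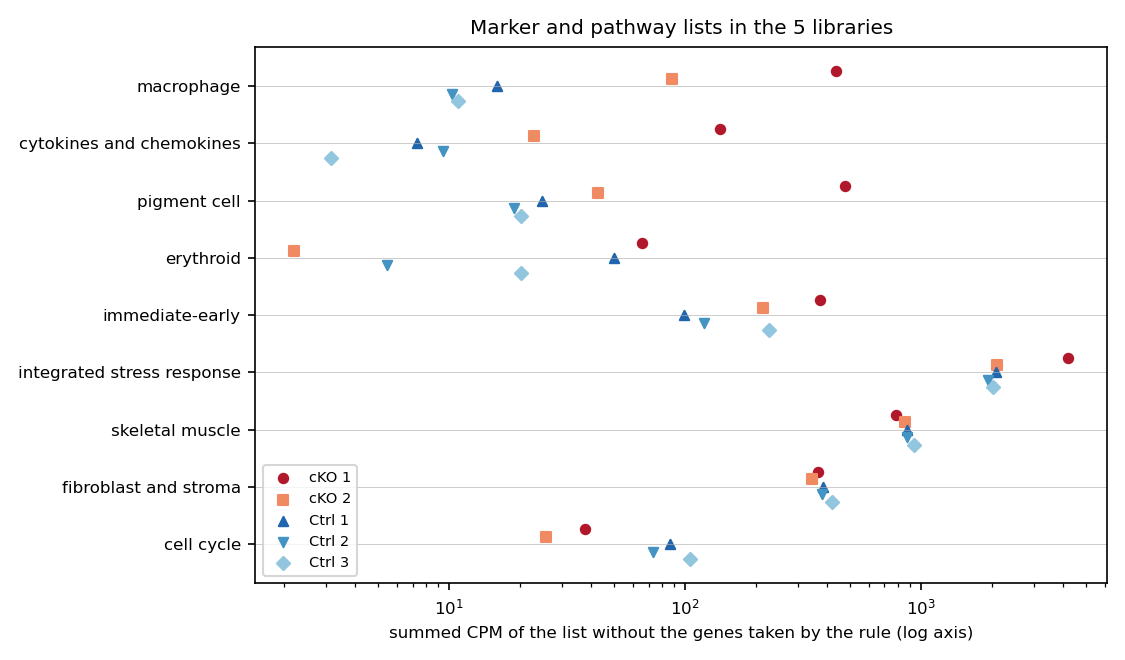
Summed CPM (x, log axis) of 9 gene lists in the 5 libraries, without the genes taken by the rule. Macrophage genes lie at 436 CPM in cKO 1, 87.9 in cKO 2 and 10.3 to 15.9 in Ctrl, and erythroid genes at 65.6 and 2.2 CPM in cKO 1 and cKO 2.

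Stress and early-response genes added a further group in cKO 1. Fgf21, a hormone induced by the integrated stress response, had 57 counts in cKO 1, 0 in cKO 2 and 0, 0 and 1 in Ctrl. Slc7a11, the cystine transporter, had 105 and 0 in cKO 1 and cKO 2 but 161, 115 and 168 in Ctrl, with partly fractional counts. The pair thus differ, Fgf21 being a gene nearly absent from the controls and Slc7a11 a control-lens gene missing from cKO 2. Outside the rule, all 18 stress-response genes with at least 10 counts were higher in cKO 1 than in cKO 2, against 52.7% over the whole table. Between cKO and Ctrl, 8 of 19 tested genes were higher and 0 lower (median 1.19), against 5.76% and 7.73% over all genes. The list without the genes of the rule summed to 4210 and 2090 CPM against 1920 to 2080 in Ctrl (exact permutation p = 0.1, adjusted p = 0.152). Nupr1, a stress-induced nuclear protein that was not called, led that sum (79481 and 46098 counts), and without it the list summed to 958 and 374 CPM against 274 to 278 in Ctrl. Without cKO 1, the log2 ratio of the full sum to Ctrl moved from 0.65 to 0.06. Egr2, a transcription factor of the immediate-early class, had 56, 0, 4, 5 and 4 counts in cKO 1, cKO 2 and Ctrl 1 to 3, and Fosb, an AP-1 subunit, 54, 0, 0, 18 and 2. Immediate-early genes outside the rule were higher in cKO 1 for 11 of 12 and summed to 372 and 214 CPM, but Ctrl ranged from 99.0 to 226 (exact permutation p = 0.3, adjusted p = 0.417), and 0 of 12 tested passed. Egr1 alone had 1199 counts in Ctrl 3 and 38 and 50 in Ctrl 1 and Ctrl 2.

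Several of the genes with the highest counts among the 85 held by cKO 1 fall under none of the lists. Avil (ENSMUSG00000025432), which encodes the actin-binding protein advillin, known from sensory neurons and tuft cells, had 333 counts in cKO 1, 0 in cKO 2 and 13, 3 and 3 in Ctrl. Ces5a, a carboxylesterase, had 356 and 0 in cKO 1 and cKO 2 but 221, 215 and 188 in Ctrl. Cass4, a scaffold of focal adhesions, had 134, 0, 1, 2 and 6 counts in the same order. Avil and Cass4 thus stood far above every Ctrl pool, and Ces5a above them by a smaller margin. Cds1, an enzyme of phospholipid synthesis, had 173, 0, 35, 27 and 53, and Mal2, a protein of apical transport, 159, 0, 50, 48 and 55. In both, cKO 1 lay above every Ctrl pool while cKO 2 held none.

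Adamts1, a matrix protease, had 67 counts in cKO 1, 0 in cKO 2 and 39, 108 and 26 in Ctrl, within the Ctrl range. It was the only gene of 20 in the matrix protease list to meet the rule. The rest of that list summed to 301 and 339 CPM against 297 to 346 in Ctrl (exact permutation p = 0.8, adjusted p = 0.883).

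Some of the genes held by cKO 1 are control-lens genes that were low in cKO 1 and absent from cKO 2. Below every Ctrl count in cKO 1 were 11 of the 85, against 27.2% of all genes with at least 50 counts there. S1pr3, Rab32, Tacr1, Itga3 and Adamtsl4 were named for their high Ctrl means. No gene of this direction had more than 356 counts in cKO 1, so that choice partly sets how far cKO 1 lies below Ctrl in them. S1pr3 (ENSMUSG00000067586), a receptor for sphingosine-1-phosphate, had 1615, 1272 and 1627 counts in Ctrl 1, 2 and 3, 71 in cKO 1 and 0 in cKO 2. The fitted log2 fold change was −5.54 (SE 1.11), with an edgeR adjusted p of 0.0296 in the comparison of both pools with Ctrl. That fit uses the 0 in cKO 2 by which the gene was chosen, so the call is a description. It was lost without any one Ctrl library (adjusted p = 0.11 to 0.131). Rab32, a small GTPase of lysosome-related organelles, had 546, 624 and 668 in Ctrl, 75 in cKO 1 and 0 in cKO 2. Tacr1, the receptor for substance P, had 357, 355 and 400, then 58 and 0. In these 3 genes cKO 1 lay far below every Ctrl pool.

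Itga3, the integrin alpha 3 chain that binds laminin, had 252, 223 and 364 counts in Ctrl, 85 in cKO 1 and 0 in cKO 2. Adamtsl4, a microfibril-binding protein whose human gene is linked to lens dislocation, had 259, 241 and 359, then 74 and 0. Each had a log2 fold change for cKO 1 alone of −1.81 (Itga3) and −2.05 (Adamtsl4). For S1pr3, Rab32 and Tacr1 that change was −4.51, −3.14 and −2.79, from the fit in which the lone pool is assumed to vary like the controls. Pdgfra, a growth factor receptor of the lens epithelium, lay just outside the count limit with the same pattern (442, 415 and 513 counts in Ctrl, 48 in cKO 1 and 0 in cKO 2).

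The Ctrl pools were unequal for some of the genes. Ctrl 3 was at most 0.5 times each of the other Ctrl counts for 11 of the 85 genes, Ctrl 1 for 3 and Ctrl 2 for 0, counting genes with at least 10 in both others. Over all genes with at least 50 counts in cKO 1 the shares were 0.981%, 0.208% and 0.674%, against 12.9%, 3.53% and 0% of the 85. Gch1, the first enzyme of tetrahydrobiopterin synthesis, had 212 counts in cKO 1, 0 in cKO 2 and 168, 135 and 5 in Ctrl 1, 2 and 3. Sgk1, a kinase induced by serum and glucocorticoids, had 141, 0, 213, 309 and 56, and Cfap58, a protein of cilia and flagella, 123, 0, 49, 44 and 5. Dusp5 and Gm20431 were at 0 in Ctrl 3 as well as in cKO 2 and at 60 or more in Ctrl 1 and Ctrl 2. In the direction of cKO 2, Ctrl 3 fell to that level for 0 of the 43 genes, Ctrl 1 for 1 and Ctrl 2 for 3.

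**Figure D5:**
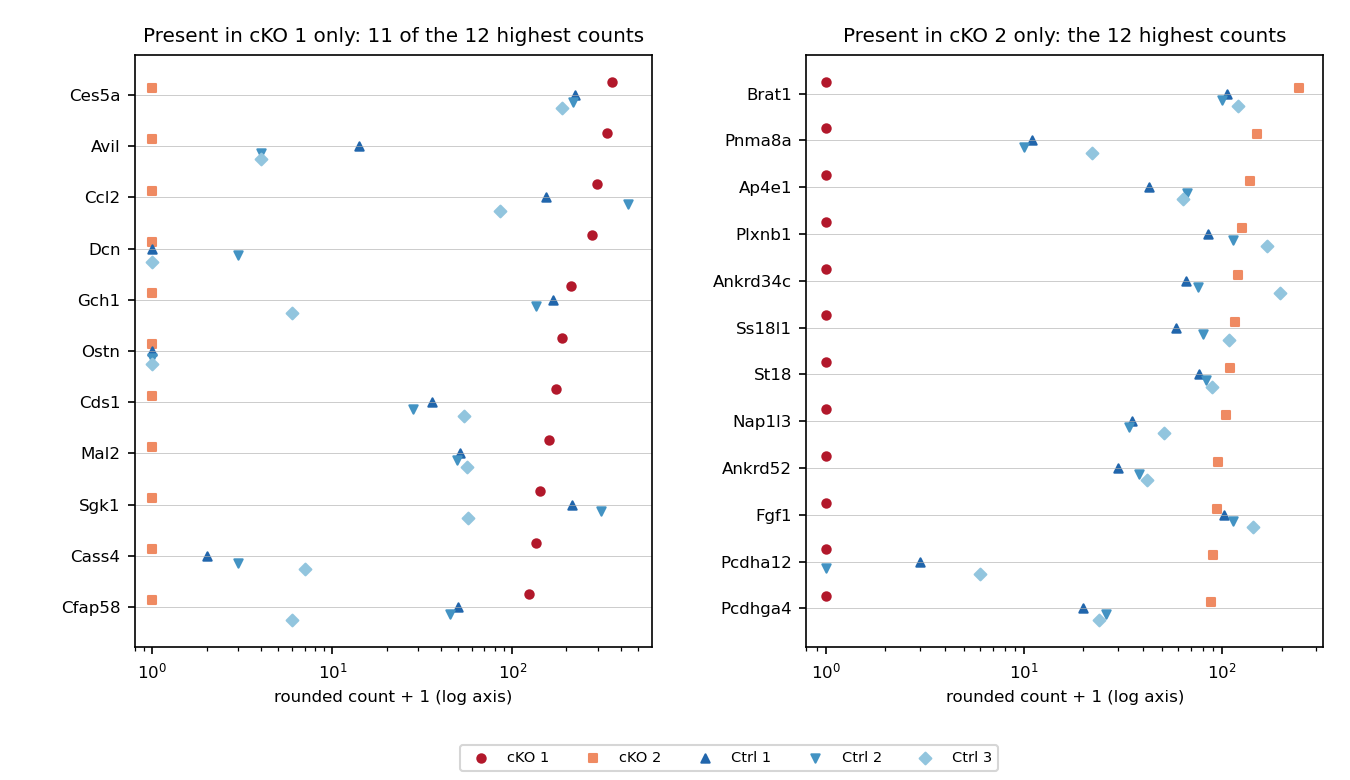
Counts plus 1 in the 5 libraries (x, log axis) for genes with the highest counts in each direction (11 on the left, 12 on the right). On the left, Dcn and Ostn have 275 and 189 counts in cKO 1 and at most 2 in any other library, and on the right most Ctrl symbols lie just left of cKO 2, as for Brat1 (245 counts in cKO 2, 99 to 119 in Ctrl).

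Of the 43 genes held by cKO 2, 1 (2.33%) was on any of the 32 lists, near the 1.94% of all genes with at least 50 counts in cKO 2. Of the 85 held by cKO 1, 14 (16.5%) were on a list, against 2.55% of such genes in cKO 1. The genes compared were not matched for count level. Brat1 (ENSMUSG00000000148), which encodes a protein of the DNA damage response, had 245 counts in cKO 2, 0 in cKO 1 and 105, 99 and 119 in Ctrl. Ap4e1, a subunit of the adaptor complex AP-4 for vesicle traffic, had 138 and 0 in cKO 2 and cKO 1 and 42, 66 and 63 in Ctrl. Plxnb1, a semaphorin receptor, had 125 and 0 against 84, 113 and 168. Brat1 and Ap4e1 in cKO 2 lay above every Ctrl pool and Plxnb1 within the Ctrl range, and the counts of Ap4e1 were partly fractional.

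Ss18l1, a chromatin remodelling subunit, had 115 counts in cKO 2, 0 in cKO 1 and 58, 79 and 108 in Ctrl. St18, a zinc finger transcription factor, had 109, 0, 76, 82 and 88 in that order, and Ankrd34c, an ankyrin repeat protein, 119, 0, 65, 75 and 196. Fgf1 (ENSMUSG00000036585), a fibroblast growth factor, a family known to drive fibre differentiation, had 93 in cKO 2, 0 in cKO 1 and 102, 113 and 142 in Ctrl. In Fgf1 the pool that held the gene lay below every Ctrl pool, in St18 and Ss18l1 above, and in Ankrd34c within the range. Nap1l3, a nucleosome assembly protein, had 104, 0, 34, 33 and 50, and Ankrd52, a subunit of a phosphatase complex, 95, 0, 29, 37 and 41. Pnma8a, of a family related to retrotransposon Gag proteins, had 149, 0, 10, 9 and 21, the largest excess over Ctrl among the 8 genes with at least 100 counts.

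Ccnb1, the mitotic cyclin B1, was the list gene of this direction. It had 56 counts in cKO 2, 0 in cKO 1 and 88, 76 and 135 in Ctrl, so both pools lay below every Ctrl pool. Of the 17 other cell-cycle genes with at least 10 counts in the cKO pools, 11 were higher in cKO 1 (64.7%, against 52.7% over the whole table). The list without Ccnb1 summed to 37.6 and 25.7 CPM in cKO 1 and cKO 2 against 73.0 to 105 in Ctrl (exact permutation p = 0.1, adjusted p = 0.152). Between cKO and Ctrl, 12 of 29 tested cell-cycle genes were lower and 0 higher (median −2.27), against 7.73% lower and 5.76% higher over all genes. Aurkb and Mcm5, like Ccnb1, were at 0 in cKO 1 (18 and 22 counts in cKO 2), while Ccnb2 and Aurka were at 0 in cKO 2 (12 and 27 in cKO 1). The other genes of the list thus lay on both sides between the cKO pools, at a share near that of all genes.

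Clustered protocadherins, cell-surface adhesion proteins whose isoforms are chosen cell by cell, gave 3 of the 43 genes and 1 of the 85. The share of this family over all genes with at least 50 counts was not counted, so these numbers are not read as a trait. Pcdha12 had 89 counts in cKO 2, 0 in cKO 1 and 2, 0 and 5 in Ctrl, and Pcdhga4 had 87, 0, 19, 25 and 23. Pcdhgb6 had 84 and 0 against 45, 49 and 56, and Pcdhb15 went the other way with 51 in cKO 1, 0 in cKO 2 and 3, 3 and 4 in Ctrl (both named after their values were seen). All 21 gamma-cluster genes summed to 332 and 795 counts in cKO 1 and cKO 2 and 685 to 942 in Ctrl, with 12 detected in each cKO pool and 20 or 21 in each Ctrl pool. The clusters differed, genes of the rule included. All 14 alpha-cluster genes summed to 118 and 395 counts in cKO 1 and cKO 2 and 81 to 96 in Ctrl. The 22 beta-cluster genes summed to 282 and 381 against 306 to 415. Alpha and gamma isoforms share their last exons, the 3 genes of cKO 2 had partly fractional counts, and the split between isoforms is uncertain.

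Function terms are given as shares of each direction, beside the shares over all genes with at least 50 counts in the same pool, and the differences between directions were not tested. The genes of the rule had at most 356 counts in cKO 1 and 245 in cKO 2, whereas the genes beside them had no upper limit. The shares are therefore not matched for level, as for the inflammatory term and the lists above. The part of level in them was not tested. Extracellular matrix covered 6 of the 85 genes (7.06% against 0.932%) and 2 of the 43 (4.65% against 0.909%). DNA-binding transcription factor activity covered 5 (5.88% against 2.34%) and 2 (4.65% against 2.38%). For cKO 2 these 2 shares rest on 2 genes each and are not read as a trait of that direction. Plasma membrane covered 30 (35.3% against 18.8%) and 11 (25.6% against 18.5%). Extracellular region covered 15 of the 85 genes held by cKO 1 (17.6% against 4.84%), among them Dcn, Col3a1, Ccl2, Cxcl1, Fgf21 and Ostn, and 2 of the 43 held by cKO 2 (4.65% against 4.4%). Signal transduction covered 12 (14.1% against 4.66%) and 1 (2.33% against 4.29%). G protein-coupled receptor activity covered 5 of the 85 (5.88% against 0.478%), which were C5ar1, Lgr5, Pth2r, S1pr3 and Tacr1, and 0 of the 43 (0.383% of all). Cell cycle covered 0 of the 85 (4.29%) and 4 of the 43 (9.3% against 4.31%), namely Ccnb1, Cep250, Map10 and Setdb2. Mitochondrion was below its share in both, with 6 of 85 genes (1222 of 8158 overall) and 1 of 43 (1263 of 8362 overall). Visual perception covered none in either direction.

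The longest annotated transcript had a median of 4340 bases (quartiles 3570 and 5270) over the 43 genes and 3273 bases (2040 and 4690) over the 85. The medians over all genes with at least 50 counts were 3354 bases in cKO 2 and 3261 in cKO 1. Within the 85, the 31 genes with under 10 counts in every Ctrl library had a median of 2197 bases and the 37 with 10 or more had 4132. Within the 43, the 4 genes under 10 in every Ctrl library had a median of 4388.5 bases and the 32 with 10 or more had 4341.5. The medians thus differed by Ctrl level in the first direction, and 4 genes are too few to compare in the second. The part of length in the absences was not tested.

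Promoters were searched for the TEAD motif CATTCC on both strands (GGAATG on the other strand; the 2 forms do not overlap), in windows from 250 bases before to 50 after each start, because YAP1 acts through TEAD. RefSeq promoters (GRCm38.p6, matched by symbol) were found for 63 of the 85 genes and 29 of the 43. The motif was in 12 (19.0%) and 5 (17.2%), beside 13.8% and 13.6% of the genes with at least 50 counts in cKO 1 and cKO 2 and 16.6% of all 27025 symbols in the table. These shares are a description and a match is no proof of a site. The first 2 genes of each direction by count with a match are shown to let the windows be compared, with the motif in capitals. They lie at chr10:21993640-21993939 (plus strand) for Sgk1, chr6:42644992-42645291 (minus strand) for Tcaf2, chr2:127008461-127008760 (plus strand) for Ap4e1 and chr9:109095186-109095485 (plus strand) for Plxnb1, each 300 bases and read 5′ to 3′ on the gene's strand. Tcaf2, a protein associated with the cold-sensing channel TRPM8, had 118 counts in cKO 1, 0 in cKO 2 and 25, 28 and 30 in Ctrl, and was chosen by its promoter match.
Sgk1: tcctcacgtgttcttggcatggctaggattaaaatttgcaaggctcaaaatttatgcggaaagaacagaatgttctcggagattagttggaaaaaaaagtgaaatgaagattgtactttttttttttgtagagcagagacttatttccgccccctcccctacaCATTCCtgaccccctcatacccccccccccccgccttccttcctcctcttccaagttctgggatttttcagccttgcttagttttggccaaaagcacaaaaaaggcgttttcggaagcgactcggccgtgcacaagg
Tcaf2: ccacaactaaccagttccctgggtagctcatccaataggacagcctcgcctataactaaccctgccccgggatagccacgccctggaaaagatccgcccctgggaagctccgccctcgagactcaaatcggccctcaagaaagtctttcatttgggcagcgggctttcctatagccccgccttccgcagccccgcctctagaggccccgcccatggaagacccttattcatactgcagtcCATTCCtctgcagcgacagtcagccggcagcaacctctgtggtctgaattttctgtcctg
Ap4e1: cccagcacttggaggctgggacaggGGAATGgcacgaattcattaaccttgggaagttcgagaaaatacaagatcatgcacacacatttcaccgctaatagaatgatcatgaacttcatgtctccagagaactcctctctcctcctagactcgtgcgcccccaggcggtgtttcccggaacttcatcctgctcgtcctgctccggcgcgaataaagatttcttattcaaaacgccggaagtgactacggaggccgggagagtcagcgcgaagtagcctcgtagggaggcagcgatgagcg
Plxnb1: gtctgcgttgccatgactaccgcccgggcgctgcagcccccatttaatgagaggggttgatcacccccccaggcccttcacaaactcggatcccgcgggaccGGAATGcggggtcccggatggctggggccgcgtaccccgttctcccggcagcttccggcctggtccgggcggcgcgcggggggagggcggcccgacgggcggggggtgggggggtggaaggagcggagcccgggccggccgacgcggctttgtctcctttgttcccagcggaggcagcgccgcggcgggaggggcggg
Each window held the motif 1 time. The windows were chosen for a match, so the motif in genes of both directions (Sgk1 and Tcaf2, Ap4e1 and Plxnb1) follows from that choice. Sgk1 had 6 listed starts, and its first matching window by position is shown.

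The limit of 50 counts cuts through a continuous range. In the direction of cKO 1, 14 genes had 50 to 52 counts and 7 had 48 or 49 with 0 in cKO 2. Just inside were the transcription factors Klf4 (52, 0, 2, 8 and 6 counts in cKO 1, cKO 2 and Ctrl 1 to 3) and Relb (52, 0, 29, 24 and 5). Just outside were Myh6, a myosin heavy chain of heart muscle (49 in cKO 1 and 0 elsewhere), and C3ar1, a complement receptor (49, 0, 2, 0 and 0). In the direction of cKO 2, 9 genes had 50 to 52 counts and 4 had 48 or 49 with 0 in cKO 1. Prom1, a membrane protein of cell protrusions, was just inside (50 in cKO 2, 0 in cKO 1 and 54, 25 and 17 in Ctrl), and Xylt1, an enzyme of proteoglycan synthesis, just outside (48, 0, 39, 17 and 39).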

How the data were processed

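Poly(A) RNA-seq of pooled mouse lenses was analysed in 2 cKO and 3 Ctrl libraries, taken as replicates from the labels. The authors deposited expected counts and FPKM for 22183 genes. Per the submitters' processing notes, RSEM, Trimmomatic and GRCm39 were used. The notes name no aligner, no order of tools and no strand setting. The authors' deposited FPKM, scaled for gene length and depth, were used only as an alternative. Between 6.03 and 7.47% of the deposited counts were not whole.

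Counts were rounded. Genes were chosen by 0 counts in one cKO pool and at least 50 in the other. edgeR 4.0.16 in R 4.3.3 (filterByExpr, minimum count 10 and total 15, TMM, quasi-likelihood F test, no block) compared cKO with Ctrl over 11724 genes, with Benjamini-Hochberg adjustment over all genes and a threshold of 0.05. It was tested on simulated data. CPM use TMM-scaled library sizes, and 3 counts (0.112 to 0.146 CPM) served as the floor of a count of 0. Floors cover counting error only, since reads are not independent molecules. List sums were compared by exact two-sided permutation over 10 splits. Where nothing more is known of a pool's source animals, p-values measure the spread between these pools.

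The genes, the 32 lists (561 genes, 558 in the table), the 26 function terms and the tests were chosen with earlier results of these data known. Named genes are, per direction, the 12 with the highest count, the 6 with the highest Ctrl mean, up to 3 per list and up to 5 called genes. Others are marked or stand for a list or term. Individual values of 2 genes are not reported here. Alternatives were DESeq2 1.42.0, total-count scaling, no filter, each library left out, a replicate block and other limits of the rule.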

Additional observations from a re-analysis of the deposited data

How the results depend on the processing

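Of 135 values recomputed for 23 results, 103 stayed close to the reported value, meaning within 1.5 times for a count of genes, and the same direction and side of the threshold for S1pr3 and the list sums, whose size could still change. The number of genes depends on the limit: with at least 20 counts it was 353 (cKO 1) and 225 (cKO 2), with at least 100 it was 20 and 8, with up to 3 counts allowed in the other pool it was 75 for cKO 2 (115 for cKO 1), and by FPKM (0, and at least 1) it was 23 for cKO 2 (76 for cKO 1). Genes with at least 20 in place of 50 in every Ctrl library numbered 29 and 22. Leaving out 1 Ctrl library gave 7 to 9 genes at 0 in the remaining Ctrl libraries for cKO 1 and 0 to 1 for cKO 2.

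Calls of these genes between cKO and Ctrl moved with DESeq2 (4 higher for cKO 1) and without the filter (2 lower for cKO 1). With 1 library left out, calls for cKO 1 ranged from 0 to 50 higher and 0 to 44 lower, and for cKO 2 from 0 to 19 higher and 0 to 38 lower, the high values all with 1 cKO library left. With the replicate number as a block 0 genes of cKO 1 were lower, and S1pr3 changed by −6.2 (edgeR adjusted p = 0.0708). Same-numbered libraries had deviations that correlated by 0.111 and −0.083, so the numbers were not taken to pair the samples, and the block changed no other call.

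The list sums of muscle and stromal genes (log2 cKO over Ctrl −0.12 and −0.15) turned to 0.09 and 0.06 with CPM by total counts. Matrix proteases (0.03) ranged from −0.06 to 0.11 and erythroid genes (0.43) from −3.52 to 1.4 with 1 library left out. S1pr3 ranged from −13.63 to −4.51. A gene at 0 in a pool can hold up to 3 counts at this depth, and absence from the tissue is not shown.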
